A study of Mus musculus with 2 samples.

Results

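The genes described are 34 components of the cell's contact with its matrix: laminin chains, the linkers and proteoglycans of the basement membrane, fibronectin, the integrin receptors and dystroglycan. They were chosen by name, and each was read from every probe set that the platform annotation gives to it alone. Of the 34, 33 had such a probe set, and Itga11, an integrin that binds collagen, had none and is not analysed here. The annotation gives 18193 genes a probe set of their own. The RNA came from mouse urogenital ridges at E14.5, the embryonic tissue that holds the Müllerian and Wolffian ducts, after the gonads had been taken off.

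One pool of about 100 ridges was heterozygous (Misr2+/-) and one pool of about 100 ridges was homozygous (Misr2-/-) for a deletion of Misr2, and each pool was read on 1 array. Misr2, listed as Amhr2, is the receptor gene through which Müllerian inhibiting substance (MIS), a hormone of the fetal testis, triggers loss of the Müllerian duct in males. The heterozygous ridges, which also carry 1 deleted allele, are described in the labels as responding to MIS and the homozygous ridges as not responding. Both pools shared a mixed C57Bl/6 and 129SVEV strain and a YFP reporter used to score genotype, and the labels do not name the sex of the embryos. With 1 array per genotype there is no replicate, so no difference below was tested.

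Basement membranes are sheets of matrix beneath epithelia and around muscle, nerve and vessels. Laminins, trimers of an alpha, a beta and a gamma chain, form 1 of their networks and type IV collagen the other, and nidogens and the heparan sulfate proteoglycans perlecan and agrin tie them together. Cells hold this sheet through integrins, pairs of an alpha and a beta chain, and through dystroglycan. In the regressing Müllerian duct of the rat, breakdown of the basement membrane around the duct is a known early step.

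Signals are linear intensities with maxima of 17015.2 (heterozygous) and 18718.8 (homozygous) and a minimum of 0.1 on each array. Measured probe sets are those with at least 1 signal at or over the median of its own array (116.5 heterozygous, 139.4 homozygous). In the differences this floor replaced any lower signal, whereas summed marker signals below were taken without it. The medians differ by 0.26 on the log2 scale, and every difference below is homozygous minus heterozygous relative to that shift. A value on the scale as deposited is higher by 0.26, and a value scaled to the hybridisation spikes, control transcripts added to each labelled sample, is lower by 0.39, so that a difference smaller than these changes direction with the scaling. For a gene, the brightest measured probe set gives the value. The spread between probe sets of 1 gene, the only error these arrays offer, had an SD of 0.23 over 5264 genes. It was 0.26 in the dimmest and 0.19 in the brightest of 4 equal bins of genes. The bins were set by the dimmer probe set of each pair, whereas a gene was placed in them by the mean signal of its brightest. Amhr2 itself read 1549.6 in heterozygous and 10.2 in homozygous ridges on its brightest probe set, a drop of at least 13.3-fold. Its 3 measured probe sets all lay below 0, from -3.73 to -0.64.

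The tissue label was checked on marker genes. Of 11 duct epithelium markers with a probe set, 11 were measured, and of 10 markers of ridge mesenchyme and coelomic epithelium, 9 were measured. Over all 18193 genes with a probe set, 11432 were measured, so that being measured does not by itself show that a cell type was present. Of 8 Sertoli cell markers 5 were measured, and all 5 lay below 0, next to 4834 of the 11432 measured genes. Aard was at 820.6 and 673.4, while Amh, Dmrt1 and Cbln4 were under the floor. Of 6 markers of nephron progenitors and podocytes 3 were measured, Podxl, Wnt4 and Eya1, while Six2, Cited1 and Nphs1 were under the floor. The summed signal of the 6, with the floor not applied, divided by the array median was 45.0 in heterozygous and 38.3 in homozygous ridges. Most of it came from Podxl, at 2785.4 and 3243.1, and Wnt4, at 2092.9 and 1779.9. Of 8 germ cell markers 6 were measured, and the same sum was 14.1 for heterozygous and 8.41 for homozygous ridges, and for the Sertoli cell markers it was 14.2 and 8.77. Their part in the values below was not tested. In pooled tissue, fewer cells of a type and less RNA per cell cannot be told apart.

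Of the 33 genes with a probe set, 25 were measured, next to 11432 of all 18193. No brightest probe set of a measured member differed as much as 1.5-fold, whereas 2.08% of the 11432 measured genes were at least 1.5-fold higher in the homozygous pool and 0.883% at least 1.5-fold lower. At 1.3-fold, 2 members were higher (Lama5 and Itgb8, 8% of the measured members) and 1 was lower (Itga4, 4%), next to 7.31% and 3.11% of all measured genes. These shares are near those of all genes. The members had a median of 0.06, from -0.39 to 0.44, and all measured genes had a median of 0.04. Above 0 lay 17 of 25 members, 68.0%, and 57.7% of all measured genes. The median absolute difference was 0.15 over the members and 0.13 over all measured genes. Differences past the probe set spread of the gene's bin were seen in 10 of the 25 members and in 28.5% of all measured genes. Both counts use the brightest probe set, and on it no member reached 2 times that spread. Other measured probe sets did, such as those of Lamb1 at 0.53 and Nid1 at -0.51.

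**Figure D1:**
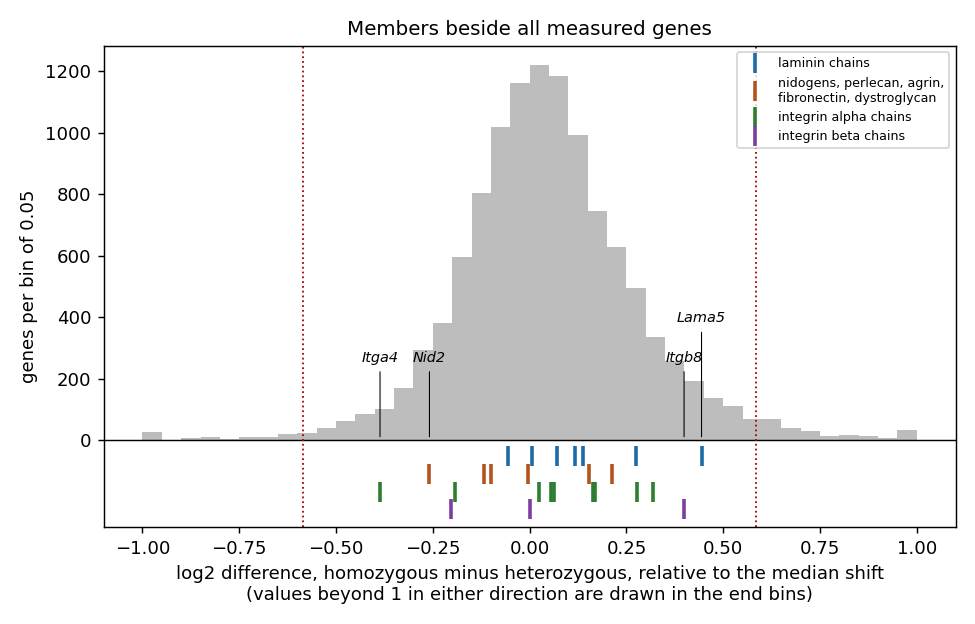
Histogram of the log2 difference (homozygous minus heterozygous, relative to the median shift) over 11432 measured genes, in genes per bin of 0.05, with a tick below it for each of the 25 measured members, coloured by group; dotted lines mark 1.5-fold. Every member tick lies between -0.39 (Itga4) and 0.44 (Lama5), inside the dotted lines; as deposited all values move up by 0.26, and against the spikes down by 0.39.

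Laminin alpha chains decide which receptor a laminin trimer binds. Lama5, the broadly used alpha chain of epithelial and vascular basement membranes, had the highest value of the members, with signals of 530.1 in heterozygous and 862.9 in homozygous ridges, 1.36-fold higher in the latter (0.44 on the log2 scale). Its second measured probe set went from 275.3 to 355, a difference of 0.11, so that both point the same way with unequal size. Of all measured genes, 4.89% had a value at least as high as that of Lama5.

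Lama1, the alpha chain of the earliest embryonic basement membranes, had signals of 766.6 and 1110.7, a difference of 0.28 from its only probe set. This is 1.22 times the spread of its bin, and 13.6% of measured genes were at least as high. Lama2, the main alpha chain around muscle and Schwann cells, had signals of 706 and 886.9 and a difference of 0.07. Lama4, an alpha chain of vessel walls and mesenchyme, had signals of 1054.9 and 1266.7 and a difference of 0.01. Among the alpha chains, the pools were thus most apart for Lama5 and Lama1 and nearly level for Lama2 and Lama4. Lama3, the alpha chain of skin-type anchoring laminin, did not reach the floor on either array, at 109.5 and 119.2.

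The dimmer probe set of Lama4 stands apart from the brighter one. It read 174 in heterozygous and 92 in homozygous ridges, lower by at least 1.49-fold, a bound because the second signal is under the floor. It is the only 1 of the 78 probe sets of the members that appears among the 739 of the authors' deposited table of fold changes. That share is near the one over the whole array, 739 of 45101 probe sets. The authors' fold for this Lama4 probe set is -2.287, meaning lower in the homozygous pool. The authors' deposited table has no entry for the brighter Lama4 probe set. No source used here gives the filter behind that table.

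Beta and gamma chains are shared between trimers. Lamb1, the beta chain of most embryonic laminins, had 3 measured probe sets that disagree. The brightest went from 4327.9 to 4979.8, a difference of -0.06, and another from 718.4 to 802.4, a difference of -0.10. The remaining one went from 1115.9 to 1924.2 and was 0.53 higher in the homozygous pool, the highest value of any probe set of the members. Lamb2, the beta chain of glomeruli and neuromuscular junctions, had signals of 310.5 and 408.5 and a difference of 0.14. Lamc1, the gamma chain of nearly all laminins, had signals of 1257.2 and 1632.2 and a difference of 0.12. Lamb3, the partner of Lama3, was under the floor at 3 and 41.2, and so was the gamma chain Lamc3, at 102.2 and 125.4.

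As a group, 6 of the 7 measured laminin chains lay above 0, 85.7%, next to 57.7% of all measured genes. The median of the 7 was 0.12, which becomes 0.38 as deposited and turns to -0.27 when scaled to spikes. Lamb1 was the exception on its brightest probe set, while another of its probe sets was at 0.53. Lama4, at 0.01, fell below 0 when each array was scaled to its 75th percentile (-0.03). The 4 measured alpha chains, each with Lamb1 or Lamb2 and Lamc1, make up the 8 laminin trimers listed here. Trimers with Lama3, Lamb3 or Lamc3, all under the floor, were not listed, so that these 8 are complete by choice.

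Markers of duct epithelium were set beside Lama1 and Lama5. Of the 11 measured, 9 lay above 0, 81.8%, next to 57.7% of all measured genes. Gata3, at -0.53, and Wnt9b, at -0.15, lay below 0. The median of the 11 was 0.24 (turning to -0.15 when scaled to spikes). Summed over the list, the signal divided by the array median was 117 in heterozygous and 137 in homozygous ridges. No marker of that list was at 0 or under the floor. The part of duct epithelium in the values of Lama1 and Lama5 was not tested.

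The linkers of the basement membrane lay on either side of 0, with Nid1 above and Nid2, Agrn and Hspg2 below it (as deposited, 0 of the 4 lies below 0). Nid2, the second nidogen, had nearly equal deposited signals of 1867 and 1867.3, which is a difference of -0.26 relative to the shift and 0.00 as deposited. Only 7.15% of measured genes had a value as low or lower. Agrn, the agrin gene, had signals of 3773.7 and 4163.2 and a difference of -0.12. Hspg2, which encodes perlecan, had probe sets on either side of 0: 733.8 and 818.7 gave -0.10, and 603.8 and 853 gave 0.24.

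Nid1, the nidogen that bridges laminin and type IV collagen, had the widest gap between its brightest pair of probe sets among the members. The brightest went from 3823.3 to 5306.6, a difference of 0.21, and the next from 777 to 654.4, a difference of -0.51. The gap of 0.72 was matched or passed by 4.18% of the 5264 genes with at least 2 measured probe sets. No direction can be given for Nid1 from these arrays.

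Fn1, fibronectin, is the main matrix ligand of mesenchyme and is read by several integrins. Its brightest probe set had signals of 6502.1 and 7762.6 and a difference of -0.00, and a dimmer one went from 657.3 to 987, a difference of 0.33. Dag1, which encodes both subunits of dystroglycan, a laminin receptor outside the integrin family, had 4 measured probe sets. The brightest went from 2411.6 to 3206.6, a difference of 0.15, and the others had differences of -0.40, -0.20 and -0.20. Its direction thus depends on the probe set. Over the 6 genes of this group (both nidogens, perlecan, agrin, fibronectin and dystroglycan) 2 lay above and 4 below 0. The share above 0 was 33.3%, next to 57.7% of all measured genes. The median of the 6 was -0.05, which turns to 0.21 as deposited and becomes -0.44 when scaled to spikes.

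**Figure D2:**
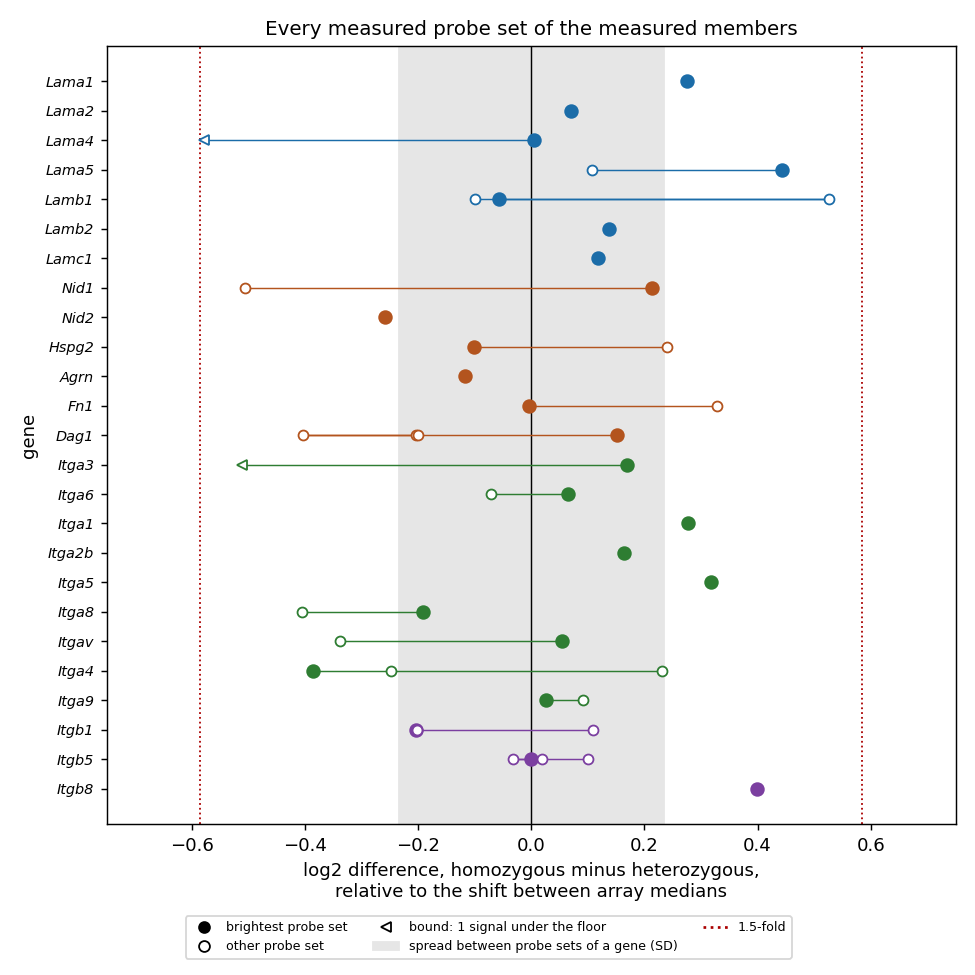
Log2 difference (homozygous minus heterozygous, relative to the median shift) of every measured probe set of the 25 measured members, 1 row per gene; filled points are the brightest probe set, open points the others, triangles are bounds set by the floor, the grey band is the SD of 0.23 between probe sets of a gene and dotted lines mark 1.5-fold. No point passes a dotted line, and the probe sets of Lama4, Lamb1, Nid1, Dag1 and Itga3 spread well past the grey band; as deposited all points move right by 0.26 and against the spikes left by 0.39.

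Among the laminin-binding integrins, Itga6, an alpha chain of epithelial and stem cells, was measured on 2 probe sets. They went from 1407.4 to 1760.6 and from 940.1 to 1070.9, differences of 0.06 and -0.07, so that the pools were level. Itga3, which pairs with Itgb1 in kidney and lung epithelium, had signals of 520.1 and 699.8 and a difference of 0.17. Its other measured probe set read 166 in heterozygous and 40.6 in homozygous ridges, lower by at least 1.42-fold, with the second signal under the floor. Itga7, the laminin-binding integrin of muscle, was under the floor at 41.7 and 77.2.

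Of the collagen-binding integrins, Itga1 had signals of 192 and 278.3 and a difference of 0.28, and 13.5% of measured genes were at least as high. Its second probe set was under the floor in both pools. Itga2, which lies next to Itga1 on chromosome 13 with 0 protein-coding genes between them, was under the floor at 75.3 and 79.4.

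Integrins that bind the RGD tripeptide of fibronectin, nephronectin and related proteins were measured for all 4 alpha chains. Itga8, the nephronectin receptor chain needed for kidney development in mice, was lower on both probe sets. Its signals were 5263.5 and 5515, a difference of -0.19, and 1133.3 and 1024.2, a difference of -0.40. As deposited the first turns to 0.07 and the second stays below 0, at -0.15. Npnt, nephronectin itself, had signals of 2550.5 and 3272.2 and a difference of 0.10.

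Itgav, the alpha chain of several RGD receptors, had signals of 4192.6 and 5208.5, a difference of 0.05, and its second measured probe set a difference of -0.34. Itga5, the classical fibronectin receptor chain, had signals of 159.7 and 238.2 and a difference of 0.32, with 3 further probe sets under the floor. Itga5 lies on chromosome 15 like the deleted gene, with 24 protein-coding genes between it and Amhr2 in the RefSeq table. Of those 24, 17 were measured, with a median of -0.07 and 6 above 0, and whether the place of Itga5 bears on its value was not tested. Itga2b, the platelet integrin chain, had signals of 217.2 and 291.1 and a difference of 0.16. Its partner Itgb3 was under the floor at 57.9 and 75.4, and of 6 megakaryocyte and platelet markers with a probe set only Pf4 was measured.

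Itga4 had the lowest value of the members. It is a receptor chain for fibronectin and for VCAM1 on mesenchyme, neural crest and blood cells. Its signals were 585.5 in heterozygous and 536 in homozygous ridges, 1.31-fold lower in the latter (-0.39), and 2.93% of measured genes were as low or lower. A second probe set, at 267.3 and 269.3, gave -0.25, whereas a dim one, at 151.5 and 212.7, gave 0.23. The ligand gene Vcam1 went from 212.6 to 396.7 on its brightest probe set, a difference of 0.64, and its other measured probe set gave -0.07. Itga9, the closest relative of Itga4, had signals of 855 and 1041.2 and a difference of 0.03, with 0.09 for its other measured probe set.

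Marker lists of cells that can carry Itga4 were set beside it. Among the markers of ridge mesenchyme and coelomic epithelium, 7 of 9 measured lay below 0, next to 4834 of all 11432 measured genes. The summed signal of this list divided by the array median was 213 in heterozygous and 182 in homozygous ridges. Amhr2, the deleted gene, is among those 7 and in both sums. It read 1549.6 and 10.2, a part of the gap that comes with the genotype. For neural crest and Schwann cells the sums were 21.1 and 10.4. Of 5 markers with a probe set only 2 were measured, and they lay on either side of 0. Ednrb, at 1926.7 and 641.7, carries the fall, whereas Erbb3 was higher in the homozygous pool, at 377.1 and 564. The defining marker Sox10 was under the floor in both pools. For macrophages 7 of 10 markers lay below 0, with sums of 85.3 and 78.9. For endothelium 4 of 8 lay below 0, with sums of 47.9 and 47.7. Their part in the value of Itga4 was not tested.

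Of the 9 measured integrin alpha chains 7 lay above and 2 below 0. The share above 0 was 77.8%, next to 57.7% of all measured genes. The median of the 9 was 0.06, which becomes 0.32 as deposited and turns to -0.32 when scaled to spikes.

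Among the beta chains, Itgb1, the partner of most alpha chains, was lower on its brightest pair of probe sets. Its signals were 2611.2 and 2713.6 on one and 1523.6 and 1584.7 on the other, and each gave -0.20. Another, dimmer probe set, at 225.4 and 290.9, gave 0.11, and 3 more were under the floor. As deposited the brightest turns to 0.06. Itgb5, a partner of Itgav, was level on all 4 probe sets, which ran from -0.03 to 0.10, and its brightest had signals of 1874.7 and 2243.3.

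Itgb8, a partner of Itgav that activates latent TGF-beta, had the second highest value of the members. Its single probe set went from 535.9 to 845.5, 1.32-fold higher in the homozygous pool (0.40), and 6.50% of measured genes were at least as high. Itgb4, the hemidesmosome chain that pairs with Itga6, was under the floor at 30.6 and 10.1, and Itgb6, an epithelial partner of Itgav, at 51.9 and 43.2. The 3 measured beta chains had a median of 0.00 (0.26 as deposited and -0.39 scaled to spikes). Of 17 known integrin pairs 10 had both chains measured, among them Itgav with Itgb5 or Itgb8 and Itgb1 with 8 of its alpha chains.

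**Figure D3:**
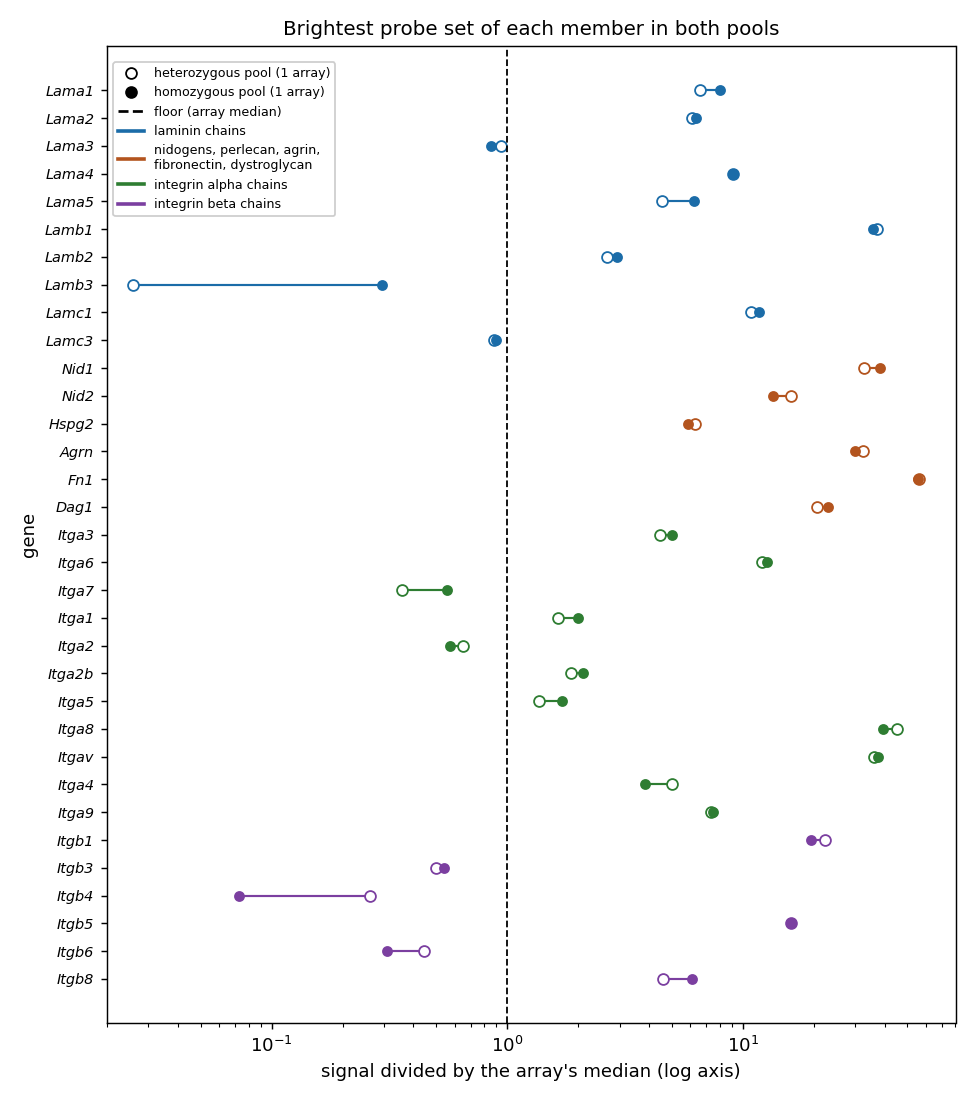
Signal of the brightest probe set of the 33 members with a probe set, divided by the array's median, on a log axis, with an open point for the heterozygous and a filled point for the homozygous pool (1 array each) and a dashed line at the floor. The pools lie close together for each of the 25 genes to the right of the line, and the wide gaps of Lamb3 and Itgb4 lie wholly under the floor; levels of different genes come from different probe sets and cannot be compared.

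The probe sets of a gene disagreed often. Of the 15 members with at least 2 measured probe sets, only 3 (Lama5, Itga8 and Itga9) had all of them on 1 side of 0, 20.0%, next to 44.6% of all such genes. That share also falls for genes close to 0, such as the level Itgb5 and Itga6, and for genes with more probe sets. It was matched for neither. The gap between the brightest pair had a median of 0.34 over these 15 members and of 0.19 over 5264 genes. At a limit of 0.5, chosen after the values were seen, 5 of 15 members (Nid1, Itga3, Lama4, Lamb1 and Dag1) had a gap at least that wide, 33.3%, next to 12.8% of genes. Which transcript ends or exons these probe sets read is not stated in the tables used here.

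Members that lie near each other in the genome were set side by side. The 34 genes are spread over 14 chromosomes. On chromosome 9, Dag1 and Lamb2 have 11 protein-coding genes between them and differences of 0.15 and 0.14. On chromosome 2, Itga4 and Itgav have 14 between them and differences of -0.39 and 0.05. On chromosome 10, Lama2 and Lama4 have 41 between them and differences of 0.07 and 0.01.

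Partner genes of the same system were read from 5 lists. Basement membrane partners, such as the type IV collagen chains, had 17 of 21 genes measured, with 10 above and 7 below 0. The share above 0 was 58.8%, next to 57.7% of all measured genes. The median of the 17, 0.05, turns to -0.34 when scaled to spikes. Col4a1 and Col4a2, the chains of the common type IV collagen, had signals of 5733.3 and 7037 and of 2530.4 and 3393.7, differences of 0.04 and 0.16. Frem1 and Smoc1, both of embryonic basement membranes, had differences of 0.41 and 0.33, each from 1 measured probe set. Fras1, which acts in 1 complex with Frem1, was at -0.34 on its brightest and 0.28 on its other measured probe set, and Col4a4 was at 0.39 and -0.37, so that neither has a direction here. No brightest probe set in this list differed 1.5-fold.

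Other integrin ligands had the highest median of the partner lists, 0.13 (turning to -0.25 when scaled to spikes). Above 0 lay 11 of 13 measured genes, 84.6%, next to 57.7% of all measured genes. Vcam1 and Ccn1, a matrix protein that binds integrins and is induced by growth factors and stretch, were each 1.56-fold higher in the homozygous pool on the brightest probe set. The probe sets of each disagree, with 2 from -0.07 to 0.64 for Vcam1 and 4 from -0.08 to 0.64 for Ccn1. The brightest of Ccn1 went from 869.8 to 1624.7, and its relative Ccn2 from 799.2 to 1395.5, a difference of 0.55. Tnc, tenascin C, had a difference of 0.34.

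Proteins of the adhesion plaque, which join integrins to actin, had 9 of 18 measured genes above 0, 50%, next to 57.7% of all measured genes. The median of the 18 was -0.00 (0.26 as deposited and -0.39 scaled to spikes). Src, a tyrosine kinase downstream of integrins, went from 359 to 646.6 and was 1.51-fold higher in the homozygous pool, with 0.52 on its other measured probe set. Fermt3, the kindlin of blood cells, had a difference of -0.31, Pxn, paxillin, of -0.22 (from -0.38 to 0.31 over 3 probe sets), and Itgb1bp1, which binds the Itgb1 tail, of 0.20. For core genes the value depended on the probe set. Tln1, talin, was at -0.04 on its brightest probe set and reached 0.34 on another, Fermt2, a kindlin, was at 0.00 and reached -0.41, and Vcl, vinculin, was at -0.09 and reached -0.85.

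The dystroglycan complex and the enzymes that glycosylate it had 6 of 12 measured genes above 0, 50%, next to 57.7% of all measured genes. The median of the 12 was -0.02, which turns to 0.24 as deposited. Sntb2, a syntrophin, went from 335.6 to 271 and was 1.48-fold lower in the homozygous pool (-0.57), with -0.15 on its other measured probe set. Dtnb, a dystrobrevin, and Dmd, dystrophin, were each at 0.36 on the brightest probe set and at -0.02 and -0.24 on the other. Pomk, a kinase that phosphorylates the sugar chain of dystroglycan, was at -0.32 on its brightest and -0.13 on its other measured probe set. Of the other integrin and laminin chains, mostly those of leukocytes, 8 of 9 had a probe set and 0 were measured.

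**Figure D4:**
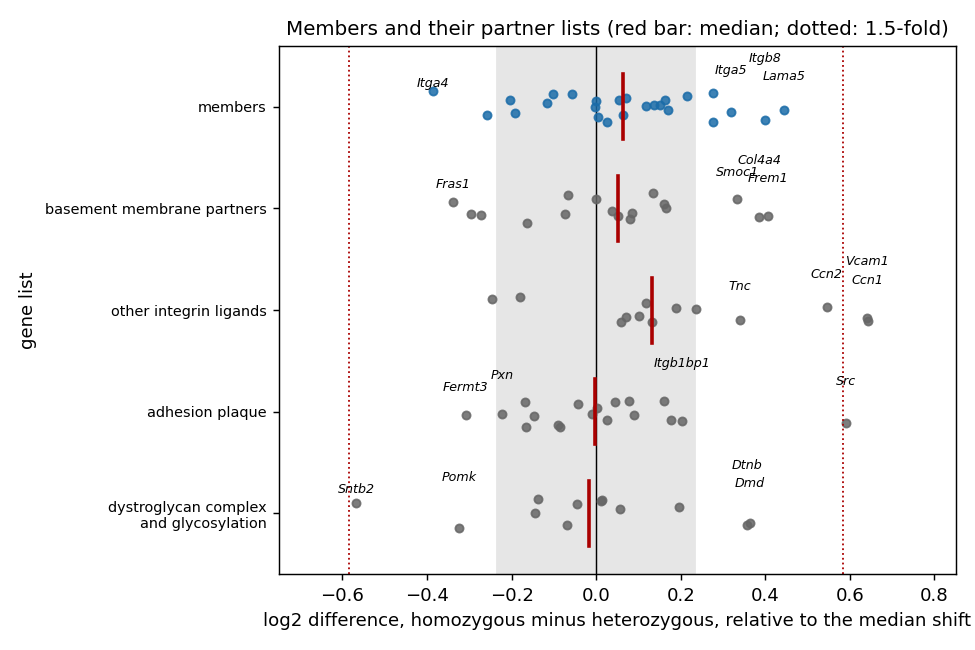
Log2 difference (homozygous minus heterozygous, relative to the median shift) of the 25 measured members and of 4 partner lists, 1 point per gene with random vertical scatter, a red bar at each median, the SD of 0.23 between probe sets of a gene in grey and dotted lines at 1.5-fold. On these brightest probe sets Vcam1, Ccn1 and Src are the only genes past a dotted line; as deposited all points move right by 0.26 and against the spikes left by 0.39.

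A constant scaling moves every member alike and so changes the place of 0 but no rank. Other settings changed the extremes. The median over probe sets put Itgb8 (0.40) above Lama5 (0.28) and Itga8 (-0.30) lowest, leaving out probe sets with the suffix _s_at, _x_at or _a_at put Lamb1 (0.53) highest, and a floor at the 75th percentile put Nid2 (-0.26) lowest. Only Itga4, Itgb8 and Lama5 had 1 direction in all 14 settings, and of these Itgb8 was at 0.01 and Lama5 at 0.06 against the spikes. Taking the median over probe sets instead of the brightest moved Lama4 to -0.29, Dag1 to -0.20 and Nid1 to -0.15.

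**Figure D5:**
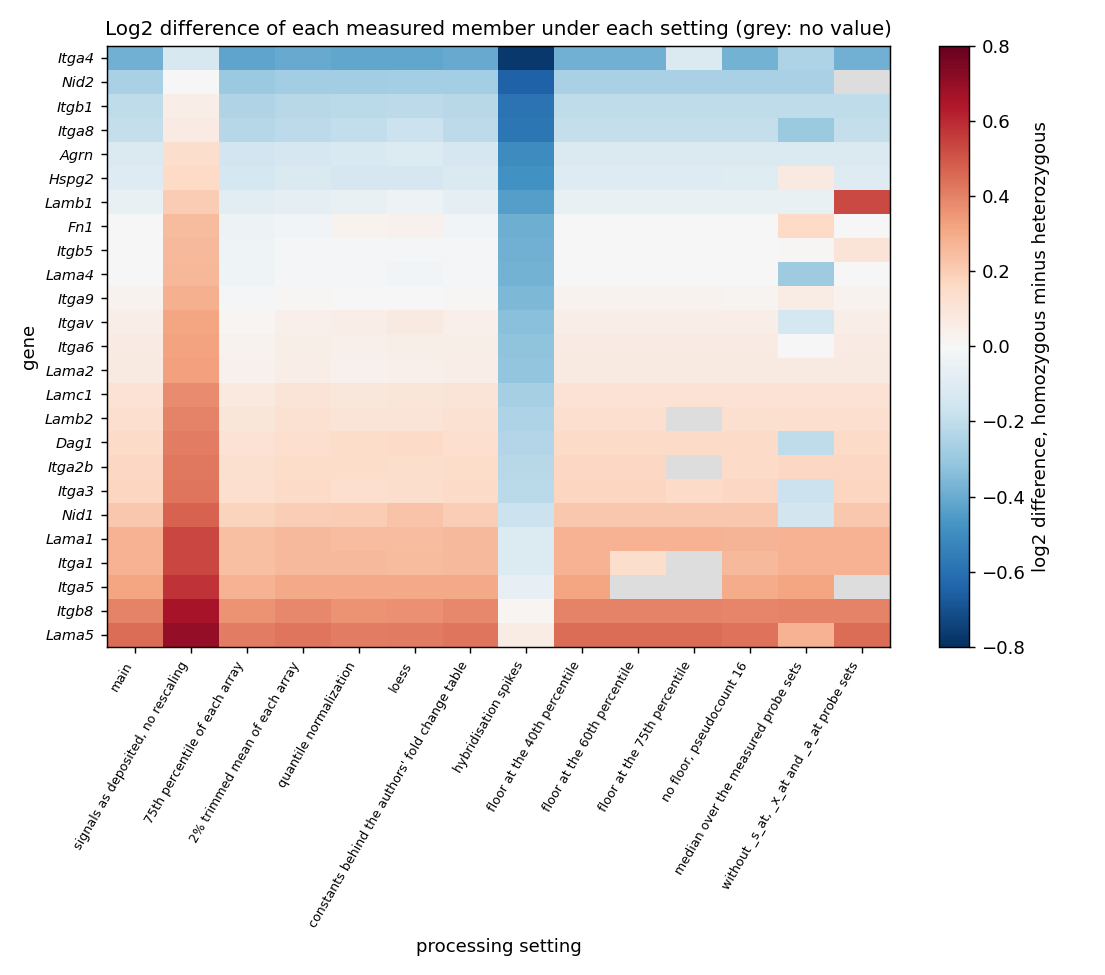
Log2 difference of the 25 measured members (rows, in the order of the main setting) under 14 processing settings (columns), from blue (lower in the homozygous pool) through white to red (higher), with grey where a setting gives no value. Colours are alike across most columns, redder throughout with signals as deposited and bluer throughout against the spikes, where Lama5 and Itgb8 alone are above 0.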

How the data were processed

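The members and gene lists were chosen with earlier results of these data known. The value table deposited by the authors gives linear intensities, 1 for each array and probe set; GCOS and MAS5 are named, without version or role, per the submitters' processing notes. The authors' second deposited table has 739 probe sets, with intensities on another scale and a signed fold, used here as a score. No source used here states how the intensities were scaled, and no detection calls were used. Of 45101 probe sets, 64 controls were left out, 34945 had 1 gene symbol, 932 had several and 9160 had none in the platform annotation. The Entrez identifier matched the RefSeq gene table of assembly GRCm38.p6, used for names, chromosomes and gene order, for 34741. Members and list genes were found by symbol or this identifier.

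Signals below the floor, the array median, were set to it, except in the sums of marker signals, and a gene was given by its brightest measured probe set. Each array was divided by its median. All members are named, with both signals for those that differ 1.3-fold, those whose probe sets differ in sign and the extremes of each role, and up to 4 genes of each partner list with the largest difference; any other gene was picked with its values known. Spread between probe sets of a gene is the SD of the gap between its 2 brightest measured ones over the square root of 2. With 1 array per group, the arrays' number limits the precision and no test was run. Alternatives were 7 scalings, 4 floors including none with a pseudocount of 16, 2 probe set rules and thresholds of 1.3-fold and 2-fold. The procedure was tested on simulated data. Python 3.11.15, pandas 2.3.3 and statsmodels 0.14.6 were used.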

Additional observations from a re-analysis of the deposited data

How the results depend on the processing

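Scaling between the arrays decided the direction of most members. With signals as deposited the median over the 25 measured members was 0.32 instead of 0.06, and it was 0.38 for laminin chains, 0.21 for the other basement membrane and matrix members with dystroglycan, 0.32 for integrin alpha and 0.26 for integrin beta chains, with 2 members (Lama5 and Itgb8) at least 1.5-fold higher. Against the hybridisation spikes these medians were -0.32, -0.27, -0.44, -0.32 and -0.39, with 3 members (Itga4, Nid2 and Itgb1) at least 1.5-fold lower, and only 10 of 25 members had the direction of the main setting. All genes moved with them, to a median of 0.29 as deposited and -0.35 against the spikes. The threshold of 1.3-fold gave 2 higher and 1 lower members, and 2-fold gave 0. Under the other scalings, floors and probe set rules these medians moved by less than the probe set spread, and 0 members passed 1.5-fold in either direction. Lama5, Itgb8 and Itga4 were the 3 members with 1 direction under every setting that gave a value, although Itgb8 was at 0.01 and Lama5 at 0.06 against the spikes. The median over a gene's probe sets moved Dag1, Itga3, Lama4 and Nid1 by more than the probe set spread, to -0.20, -0.17, -0.29 and -0.15. Leaving out probe sets with the suffix _s_at, _x_at or _a_at, Lamb1 stood at 0.53, and with the floor at the 75th percentile Itga4 stood at -0.12. No paired analysis was possible because each genotype has 1 array. Signals near the floor limit Itga1, Itga2b, Itga5 and Lamb2, which have no value with the floor at the 75th percentile.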
